A study of Mus musculus with 60 samples.

Results

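Mid-colon was compared between naïve mice killed early in the light phase, at zeitgeber time 4 (ZT4), and naïve mice killed early in the dark phase, at ZT16. Libraries were chosen by their labels alone (treatment naïve, time ZT4 or ZT16), which took 10 of the 60 libraries in the series, 5 per time point, and no library from a mouse with collagen-induced arthritis entered. All 10 came from male DBA/1 mice from Envigo, kept in 12:12 light and dark with ZT0 at lights on and ZT12 at lights off, with normal chow always available. They shared cages with arthritic mice, and no immunization is described for them. Their own ages are not given, beyond 9 to 10 weeks for the arthritic mice when immunized. From each mouse a 5 mm piece of the whole wall was frozen, so epithelium, muscle, nerve, lymphoid tissue and any attached fat entered 1 library together, and each mouse gave 1 time point only. Light phase, rest and fasting go together in mice with free food, as do dark phase, activity and feeding, so that these cannot be told apart here.

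Most colon cells carry a circadian clock, a loop in which BMAL1 (the protein of Arntl) pairs with CLOCK or NPAS2 to switch on the Period and Cryptochrome genes and the REV-ERB genes, whose proteins then shut the loop down. PAR bZIP factors such as DBP, TEF and HLF pass the rhythm on to output genes through D-box sequences, and REV-ERB and ROR proteins compete at RORE sequences. Besides the clock, body temperature and feeding vary over the day in mice. Heat shock proteins are chaperones that help other proteins fold and are transcribed under heat shock factor HSF1, and cold-inducible RNA-binding proteins such as CIRBP are known to be raised by mild cooling of cells.

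The libraries held 26685338 to 53207922 counted reads, with the lowest total in ZT16 replicate 3 and the highest in ZT4 replicate 1. Levels are given as CPM, the count of a gene relative to all counts of its library as edgeR scales it, after scaling by the trimmed mean of M-values (TMM), whose factors lay between 0.977 and 1.02. Fold changes are log2 values of ZT16 over ZT4 with a standard error (SE), so that a positive value means higher at ZT16, and adjusted p values come from edgeR's quasi-likelihood test with Benjamini-Hochberg adjustment over all genes tested, with 0.05 as the threshold. The marker list of colon epithelium had a mean log2 CPM of 9.87 to 10.7 in the 10 libraries, and that of small intestine lay between -2.20 and -1.19. Markers of other tissues were less even. B cell follicle markers stood at 4.83 to 6.01 in ZT4 replicates 2, 4 and 5 and at 0.24 to 2.84 in the other 7 libraries, the fat markers ranged from -2.66 to 4.32, and the markers of enteric neurons were at 2.42 in ZT4 replicate 1 against 4.15 to 4.77 elsewhere.

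Of 16786 genes tested between early light and early dark, 47 (0.28%) were higher at ZT4 and 63 (0.375%) were higher at ZT16 by edgeR's quasi-likelihood test. On the same 10 libraries DESeq2 called 918 and 546 genes and limma voom with quality weights 922 and 683, so that the number of calls depended on the tool. The median absolute log2 difference of these genes was 0.756 for those higher at ZT4 and 0.72 for those higher at ZT16, and 18 and 13 of them differed by more than 1 on the log2 scale. By more than 2 on that scale differed 2 genes higher at ZT4 and 1 higher at ZT16. In each of the 110 genes the 5 ZT4 libraries and the 5 ZT16 libraries did not overlap in CPM. Without the test, 473 genes (2.82%) had every ZT4 library above every ZT16 library and 444 (2.65%) the opposite, and 3531 genes had an unadjusted p under 0.05. Across all genes tested the median log2 fold change was 0.00, and 50.5% of values were above 0.

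The counts depended heavily on single mice. Leaving out ZT4 replicate 1 raised them to 738 (4.37%) higher at ZT4 and 429 (2.54%) higher at ZT16, and all 47 and 63 genes stayed among them. Leaving out the library labelled ZT4 replicate 4 lowered them to 2 (0.0119%) and 13 (0.0772%) of 16843 genes. The other 8 libraries, left out in turn, each gave between 1 and 8 genes higher at ZT4 and between 3 and 18 higher at ZT16. When the 20 naïve libraries of the other 4 time points joined the fit to estimate the spread, 795 genes (4.51%) were higher at ZT4 and 421 (2.39%) higher at ZT16, among them 47 and 60 of the first 110. Without single libraries this larger fit gave 241 genes (ZT4 replicate 5 left out) to 1413 genes (ZT4 replicate 1 left out) higher at ZT4, and 153 to 944 higher at ZT16 with the same libraries left out.

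**Figure D1:**
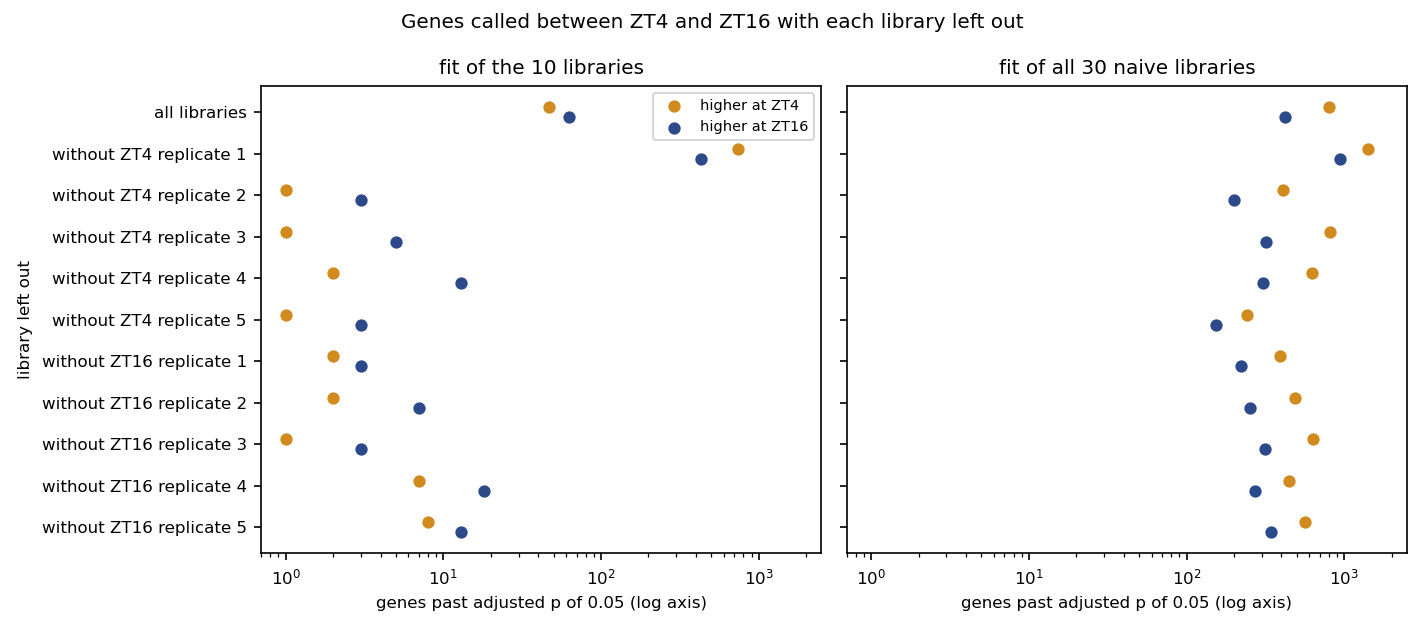
Number of genes past an adjusted p of 0.05 (log axis) with all libraries and with each of the 10 libraries left out, for the fit of 10 libraries (left) and of 30 naïve libraries (right); orange points count genes higher at ZT4 and blue points genes higher at ZT16. With 10 libraries the counts run from 1 to 738 and from 3 to 429, with the highest of both without ZT4 replicate 1.

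Without the library labelled ZT4 replicate 4, 15 genes passed. Among those higher at ZT16 were Per2, Cys1, P4ha1, Pitpnm2, Fbxo3, Tef, Mgp, Hlf, Wee1, Usp2, Dnaja4 and Dgat2, and those higher at ZT4 were Cirbp and an identifier with no symbol in the reference table. Tef, Hlf and Dgat2 had not passed with all 10 libraries, and the other 12 had. The remaining genes of the 110 kept their direction, and their edgeR adjusted p without this library ran up to 0.0979. Cirbp, Pitpnm2 and P4ha1 were among the few genes that passed with every single library left out in turn, with highest edgeR adjusted p values of 0.0209, 0.0227 and 0.0227.

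Of the 18 clock genes tested in 4 lists, Per2 alone passed with all 10 libraries. Per2, which encodes a Period repressor (chr1:91415977-91459351 in GRCm38), was at 18.5, 12.1, 9.22, 48.9 and 14.9 CPM in ZT4 replicates 1 to 5 and at 185, 120, 239, 124 and 163 CPM in ZT16 replicates 1 to 5. All ZT16 mice were above all ZT4 mice, and replicate 4 was the highest of the ZT4 mice. The log2 fold change was 3.00 (SE 0.443, edgeR adjusted p = 0.0287), and 3.60 (edgeR adjusted p = 0.00263) without that library. Per2 was the gene with the largest difference toward ZT16 among the 63.

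The activators of the loop had higher means at ZT4 but did not pass with 10 libraries. Arntl was at 52.4, 59.2, 65.4, 12.1 and 71 CPM at ZT4 and at 15.7, 46.5, 18.4, 25.6 and 9.95 CPM at ZT16, so that replicate 4 was below all but 1 of the ZT16 mice while the other 4 ZT4 mice were above all of them. Its log2 fold change was -1.16 (SE 0.479, edgeR adjusted p = 0.199), and -1.42 (edgeR adjusted p = 0.125) without that library. Npas2, the partner that can stand in for CLOCK, was at 36.4, 67.6, 61.9, 25.4 and 75 CPM at ZT4 and at 17, 29.1, 26, 26.8 and 15.6 CPM at ZT16 (log2 fold change -1.22, SE 0.298, edgeR adjusted p = 0.0812). Again replicate 4 alone reached into the range of the other group. Without it the log2 fold change of Npas2 was -1.40 and still did not pass (edgeR adjusted p = 0.0589). In the fit of 30 naïve libraries both Arntl and Npas2 were higher at ZT4 (edgeR adjusted p = 0.0446 and 0.00605), and Npas2 was so too with 9 libraries, without ZT4 replicate 1 (edgeR adjusted p = 0.0335). Clock itself had a log2 fold change of -0.13 (SE 0.134, edgeR adjusted p = 0.61).

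Among the repressors, Cry1 and Nr1d1 did not overlap between groups yet missed the threshold with 10 libraries. Cry1, a Cryptochrome gene, was at 29.4, 18.5, 35.9, 7.84 and 26.5 CPM at ZT4 and at 56.4, 57.9, 49.6, 58.1 and 51.6 CPM at ZT16 (log2 fold change 1.21, SE 0.309, edgeR adjusted p = 0.0886). Nr1d1, the gene of REV-ERBα, was at 82.5, 135, 67.8, 278 and 140 CPM at ZT4 and at 26.7, 13.3, 52.7, 15 and 55.4 CPM at ZT16 (log2 fold change -2.12, SE 0.499, edgeR adjusted p = 0.0771). Replicate 4 held the lowest Cry1 value and the highest Nr1d1 value of the 10 mice. Cry2 also did not overlap (log2 fold change 0.65, SE 0.164, edgeR adjusted p = 0.0867). Per3 and Per1 did (log2 fold changes 1.16 and 0.74, edgeR adjusted p = 0.166 and 0.201). In the fit of 30 naïve libraries Cry1, Cry2 and Per3 were higher at ZT16 (edgeR adjusted p = 0.00765, 0.0131 and 0.0456) and Nr1d1 was higher at ZT4 (edgeR adjusted p = 0.00343). Without ZT4 replicate 1 the other 9 libraries also gave calls for Cry1, Cry2 and Nr1d1 (edgeR adjusted p = 0.0475, 0.0464 and 0.0335). Without ZT4 replicate 4 instead, their log2 fold changes were 0.99, 0.71 and -1.71, and none passed (edgeR adjusted p = 0.0581, 0.119 and 0.126).

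The calls of 2 PAR bZIP outputs depended on replicate 4 and on the fit. Tef was at 37.7, 39.8, 27.7, 191 and 27.5 CPM at ZT4 and at 152, 85.5, 219, 118 and 219 CPM at ZT16, and Hlf at 8.22, 5.54, 5.43, 24.2 and 2.94 CPM at ZT4 and at 21.3, 17.3, 25.6, 19.7 and 24.4 CPM at ZT16. In both genes 4 ZT4 mice were below all ZT16 mice and replicate 4 lay among the ZT16 mice. With all 10 libraries neither passed (Tef log2 fold change 1.29, edgeR adjusted p = 0.219; Hlf 1.22, edgeR adjusted p = 0.18), whereas both were higher at ZT16 without replicate 4 (Tef 2.26, edgeR adjusted p = 0.0311; Hlf 1.96, edgeR adjusted p = 0.0373). With replicate 4 kept, both were higher at ZT16 in the fit of 30 naïve libraries (edgeR adjusted p = 0.045 and 0.036). Dbp was at 10.7, 6.03, 5.32, 84.4 and 4.06 CPM at ZT4 and at 12.3, 4.91, 41.2, 8.69 and 36.1 CPM at ZT16. Its log2 fold change turned from -0.11 (edgeR adjusted p = 0.957) to 1.66 (edgeR adjusted p = 0.195) without replicate 4. The ZT16 mice were themselves split, with 3 of them at levels close to those of 4 ZT4 mice and replicates 3 and 5 well above.

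The other naïve time points show where replicate 4 lay. Over the 5 naïve mice per time point, mean Dbp was 3.45 ± 0.947 CPM (SD) at ZT0, 90.4 ± 44.9 CPM at ZT8, 98.6 ± 22.2 CPM at ZT12 and 3.39 ± 1.07 CPM at ZT20. Mean Nr1d1 was 252 ± 47.3 CPM at ZT8 and 145 ± 43.7 CPM at ZT12, mean Arntl was 14.8 ± 4.98 CPM at ZT8, and mean Tef was 198 ± 61.1 CPM at ZT8. The replicate 4 values of 84.4 CPM (Dbp), 278 CPM (Nr1d1), 12.1 CPM (Arntl) and 191 CPM (Tef) were each within 1 SD of the ZT8 mean, while its Cirbp value of 80.1 CPM was close both to the other ZT4 mice and to the ZT8 mean of 81.4 CPM. The Dbp value was also within 1 SD of its ZT12 mean. Cry1 in replicate 4, at 7.84 CPM, was slightly more than 1 SD below its ZT8 mean of 13.7 ± 5.51 CPM. The cause was not tested, and the library was kept under its label in all results that use 10 libraries.

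**Figure D2:**
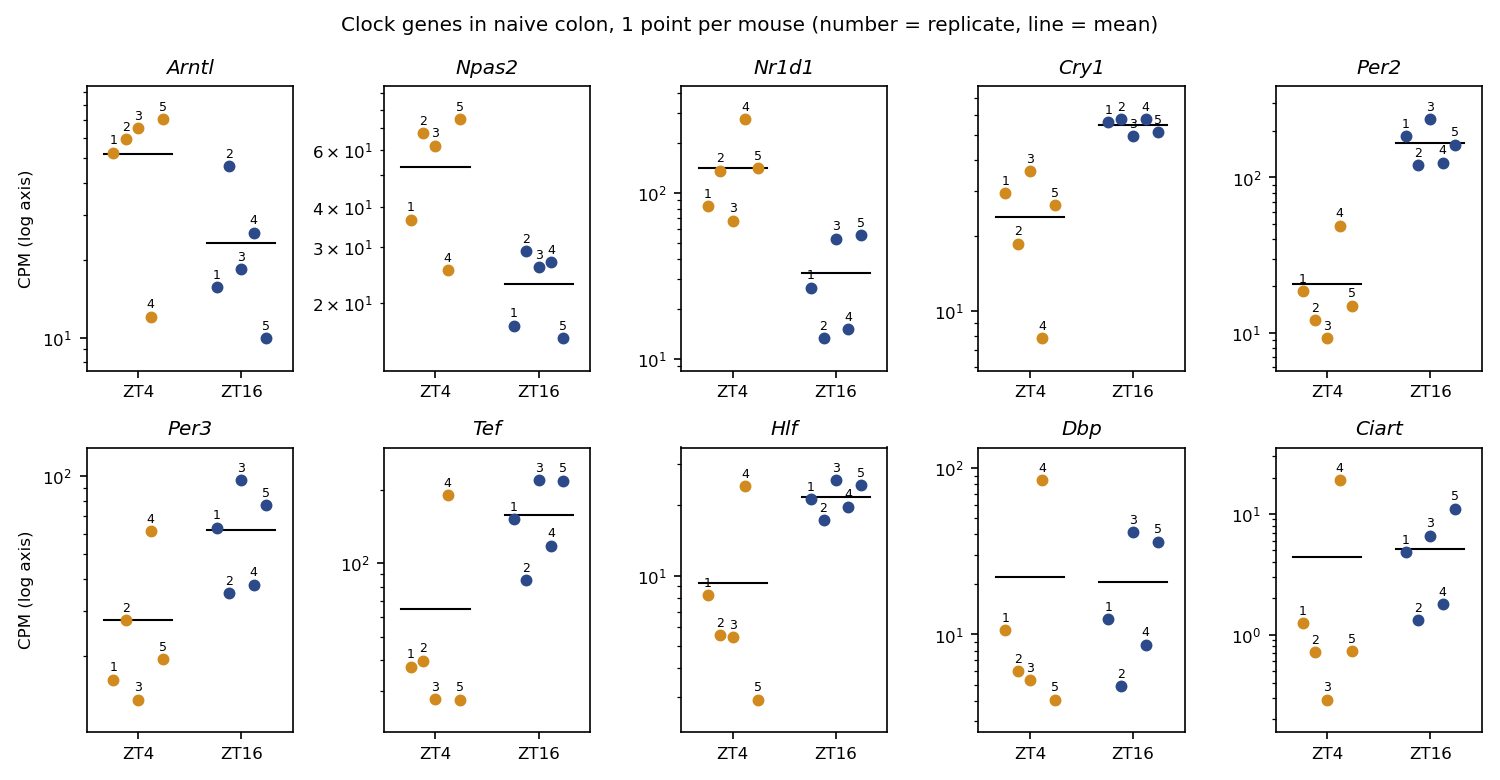
CPM (log axis) of 10 clock genes in the 5 ZT4 mice (orange) and the 5 ZT16 mice (blue) of the naïve group; numbers are replicates and black lines are group means. In Arntl, Tef, Hlf, Dbp and Ciart the ZT4 point numbered 4 sits apart from the other 4, for example at 84.4 CPM of Dbp against 4.06 to 10.7 CPM.

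Promoters of the clock genes were read for the motifs through which the loop acts, in RefSeq windows of GRCm38.p6 from 250 bases before to 50 bases after each start, on both strands. The E-box CACGTG, bound by BMAL1 with CLOCK, stood in the windows of 5 of 16 clock genes that have an entry (Cry1, Per1, Tef, Ciart and Bhlhe41) and in 8.09% of 27025 genes. The D-box, searched as TTATGTAA or TTATGCAA, stood in 2 (Per1 and Per3) and in 1.98% of genes, and the RORE, searched as TAGGTCA or TGGGTCA, stood in 2 (Arntl and Nfil3) and in 7.35% of genes. Per2 and Bhlhe40 are named only. Shown are 1 window per motif, with the motif in capitals, for 3 genes whose level in replicate 4 lay off the other ZT4 mice: Ciart (chr3:95882179-95882478, minus strand) with 3 E-boxes, Per3 (chr4:151044616-151044915, minus strand) with 2 D-boxes and Arntl (chr7:113207261-113207560, plus strand) with 1 RORE. The clock lists were written by hand from clock genes. Their shares against all genes therefore do not bear on the difference between ZT4 and ZT16. A match of letters is a description and does not show that a factor binds there.
Ciart: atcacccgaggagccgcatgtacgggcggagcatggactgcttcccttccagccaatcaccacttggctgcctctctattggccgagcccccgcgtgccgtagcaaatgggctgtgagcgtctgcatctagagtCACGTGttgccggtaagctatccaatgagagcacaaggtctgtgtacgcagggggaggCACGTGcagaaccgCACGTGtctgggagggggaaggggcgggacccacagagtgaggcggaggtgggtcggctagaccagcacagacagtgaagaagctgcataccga
Per3: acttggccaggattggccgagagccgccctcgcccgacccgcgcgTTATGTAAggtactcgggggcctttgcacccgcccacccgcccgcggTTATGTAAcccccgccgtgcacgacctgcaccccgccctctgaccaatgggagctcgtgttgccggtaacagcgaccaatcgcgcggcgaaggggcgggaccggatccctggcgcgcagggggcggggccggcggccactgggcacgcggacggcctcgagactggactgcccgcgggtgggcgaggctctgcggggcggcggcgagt
Arntl: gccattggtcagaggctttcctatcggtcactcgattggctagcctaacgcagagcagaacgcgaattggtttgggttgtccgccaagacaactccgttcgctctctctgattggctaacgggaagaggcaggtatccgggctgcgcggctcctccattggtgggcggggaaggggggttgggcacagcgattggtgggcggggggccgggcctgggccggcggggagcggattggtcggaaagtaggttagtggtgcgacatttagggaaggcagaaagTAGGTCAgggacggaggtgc

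Ciart, the gene of a repressor of BMAL1 with CLOCK, was at 1.24, 0.718, 0.29, 19 and 0.734 CPM at ZT4 and at 4.83, 1.31, 6.59, 1.79 and 11.1 CPM at ZT16. The 4 other ZT4 mice were below every ZT16 mouse, and replicate 4 was above all of them. The log2 fold change of 0.21 (SE 1.06, edgeR adjusted p = 0.926) became 2.77 (edgeR adjusted p = 0.119) without replicate 4. Per3, a further Period gene, was at 16.2, 27.6, 13.6, 61.2 and 19.5 CPM at ZT4 and at 63.1, 35.2, 96.5, 38 and 77.4 CPM at ZT16, the same arrangement with replicate 4 inside the ZT16 range. Of the remaining clock genes, Nfil3, Nr1d2, Rora, Bhlhe40 and Bhlhe41 did not pass with 10 libraries, with or without that library, or in the fit of 30 that kept it. Without it the larger fit called all 6 genes of the repressor list higher at ZT16, Per1 and Ciart among them. It also called 4 of the 5 PAR bZIP and DEC genes (306 of 17698 genes). With replicate 4 kept, these counts were 4 and 2 (2.39% of all genes). Higher at ZT4 were 2 of 3 activators and 1 of 4 REV-ERB, ROR and Nfil3 genes, with or without it.

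Genes of the heat shock list were higher at ZT16. Of its 24 tested members 10 passed toward ZT16 and none toward ZT4, against 0.375% and 0.28% of all genes, and the median log2 fold change of the list was 0.63 against 0.00 over all genes. All 24 values were above 0, from 0.20 to 1.54, and 12 members had every ZT16 mouse above every ZT4 mouse, against 2.65% of all genes. The mean log2 CPM of the list was 6.21, 5.89, 6.01, 5.85 and 5.90 in the ZT4 mice and 6.72, 6.52, 6.71, 6.73 and 6.44 in the ZT16 mice. The groups did not overlap, and ZT4 replicate 1 was the highest of the ZT4 mice.

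Hsph1, which encodes a large HSP110 chaperone that recharges HSP70 (chr5:149616843-149636498), had the largest difference of the list and was chosen after its values were seen. It was at 86.8, 35.2, 40.4, 43 and 36.8 CPM at ZT4 and at 150, 128, 147, 148 and 132 CPM at ZT16. All 5 ZT16 mice lay close together above the ZT4 mice, of which replicate 1 was about midway to them. The log2 fold change was 1.54 (SE 0.23, edgeR adjusted p = 0.0291).

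Members of the HSP90 machinery were higher at ZT16. Hsp90aa1, the stress-inducible HSP90 (chr12:110691036-110696395), was at 161, 117, 130, 112 and 107 CPM at ZT4 and at 252, 218, 224, 243 and 201 CPM at ZT16 (log2 fold change 0.86, SE 0.117, edgeR adjusted p = 0.0279). Stip1, the adaptor that joins HSP70 to HSP90, was at 84.1, 58.4, 71, 67 and 67.3 CPM at ZT4 and at 130, 119, 123, 139 and 95.1 CPM at ZT16 (0.80, SE 0.118, edgeR adjusted p = 0.0287). Fkbp4, an HSP90 partner that acts on steroid receptors, was at 269, 192, 216, 209 and 216 CPM at ZT4 and at 343, 354, 387, 376 and 308 CPM at ZT16 (0.68, SE 0.104, edgeR adjusted p = 0.0291). In none of the 3 did the groups overlap, and ZT4 replicate 1 was the highest ZT4 mouse in each. The HSP90 cofactors Ahsa1 and Chordc1 and the calcyclin-binding gene Cacybp, named after their values were seen, also passed with log2 fold changes of 0.49, 0.72 and 0.61.

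Chaperones of the HSP70 and HSP60 systems were mixed at the threshold. Hspa8, the constitutive HSP70, was at 552, 374, 338, 428 and 410 CPM at ZT4 and at 862, 668, 1025, 763 and 590 CPM at ZT16, with no overlap (log2 fold change 0.89, SE 0.172, edgeR adjusted p = 0.0491). Hspa4l and Hspe1, the latter the small partner of mitochondrial HSP60, passed at 0.66 and 0.63, while Hspd1 (HSP60 itself) had 0.68 (SE 0.159, edgeR adjusted p = 0.0762) and its ZT4 replicate 1 value of 288 CPM lay inside the ZT16 range of 274 to 334 CPM. Hspd1 and Hspe1 overlap head to head on opposite strands, and whether the counting used strand is not given in the sources used here. The inducible HSP70 genes Hspa1a and Hspa1b had log2 fold changes of 1.31 and 1.17 (edgeR adjusted p = 0.0906 and 0.0778), and since they are near-identical copies the split of reads between them is uncertain. Outside the list, the co-chaperones Dnaja4 (0.79, SE 0.104, edgeR adjusted p = 0.0219), Dnajb2 (0.52) and Ahsa2 (0.81) were higher at ZT16. Hspa8 and the other genes of this account were chosen after their values were seen, except for Dnaja4.

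The calls of the heat shock list moved with single mice far more than its values did. Without the library labelled ZT4 replicate 4 no member passed, with a median log2 fold change of 0.58 and edgeR adjusted p values of 0.0524 for Hsp90aa1 and 0.0581 for Hsph1, Stip1 and Fkbp4. The same loss followed with other mice left out, with 0 members called without any of ZT4 replicates 2, 3 and 5 or ZT16 replicates 1, 2 and 3, 1 without ZT16 replicate 4 and 3 without ZT16 replicate 5. Without ZT4 replicate 1 there were 18 members higher at ZT16, with a median of 0.71. In the fit of 30 naïve libraries 16 members were higher at ZT16 (2.39% of all genes), and 13 (without ZT4 replicate 5) to 19 (without ZT4 replicate 1) were so with any of the 10 mice left out, 14 without ZT4 replicate 4.

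**Figure D3:**
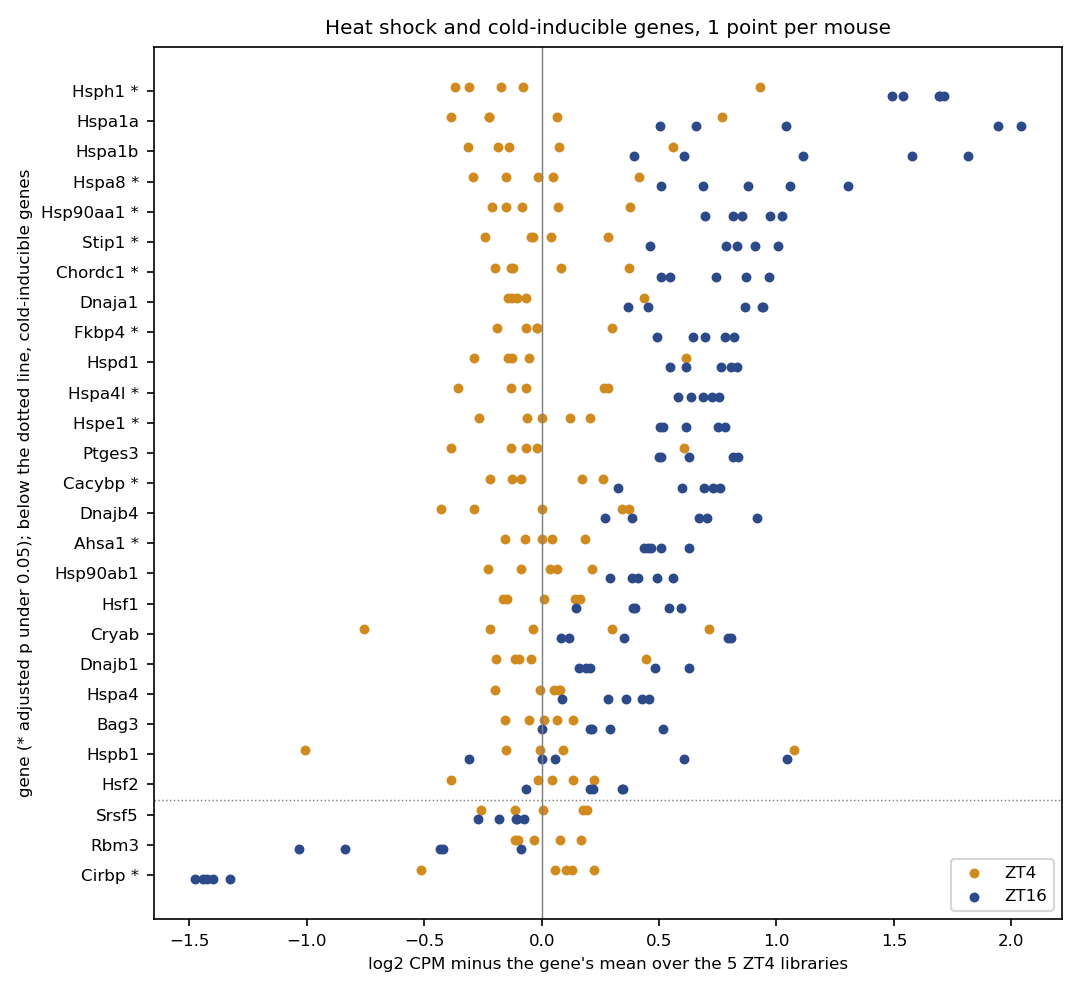
Log2 CPM of each member of the heat shock list and, below the dotted line, of 3 cold-inducible genes, minus the gene's mean over the ZT4 mice, with 5 ZT4 mice in orange and 5 ZT16 mice in blue; an asterisk marks an adjusted p under 0.05. The blue points lie mostly right of 0 for heat shock genes, by up to 1.54 in the fitted log2 fold change (Hsph1), and left of it for Cirbp.

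Windows of the 8 called heat shock genes with an entry were searched for the heat shock element, the inverted repeats that HSF1 binds, searched on both strands as the units GAA, TTC and GAA in a row with NN between each unit and the next. Hsph1, Hspe1 and Chordc1 held it, 3 of 8, and 0.662% of 27025 genes did. In the whole heat shock list 4 of 19 genes with an entry held it, among them Hspd1, which had not passed. The list was written by hand from heat shock genes. Its share against all genes therefore does not bear on the difference between ZT4 and ZT16. Hsp90aa1 and Hspa8 are named only. The windows of the 3 called genes with a match are shown, with the elements in capitals. Hsph1 (chr5:149636266-149636565, minus strand) also has an E-box CACGTG in capitals. Hspe1 (chr1:55087898-55088197, plus strand) has 2 overlapping matches and Chordc1 (chr9:18292017-18292316, plus strand) has 3 overlapping matches.
Hsph1: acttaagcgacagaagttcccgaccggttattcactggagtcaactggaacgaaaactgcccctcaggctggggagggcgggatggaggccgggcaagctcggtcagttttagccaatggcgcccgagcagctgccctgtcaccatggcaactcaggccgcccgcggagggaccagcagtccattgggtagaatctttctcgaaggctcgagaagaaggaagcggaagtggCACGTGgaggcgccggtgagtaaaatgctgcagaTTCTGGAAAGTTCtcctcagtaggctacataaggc
Hspe1: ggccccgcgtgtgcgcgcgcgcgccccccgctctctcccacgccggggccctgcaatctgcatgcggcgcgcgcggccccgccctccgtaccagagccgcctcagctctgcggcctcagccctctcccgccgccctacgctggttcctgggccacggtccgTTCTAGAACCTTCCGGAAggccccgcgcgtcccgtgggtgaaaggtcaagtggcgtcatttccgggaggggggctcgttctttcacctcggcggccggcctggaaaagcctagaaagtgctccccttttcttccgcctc
Chordc1: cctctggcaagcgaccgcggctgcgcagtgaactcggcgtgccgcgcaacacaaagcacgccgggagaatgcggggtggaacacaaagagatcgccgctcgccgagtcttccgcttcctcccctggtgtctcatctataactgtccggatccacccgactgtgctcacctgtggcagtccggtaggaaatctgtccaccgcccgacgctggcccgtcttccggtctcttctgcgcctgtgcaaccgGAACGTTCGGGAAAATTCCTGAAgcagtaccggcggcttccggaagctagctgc

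Cirbp moved the other way and had the smallest adjusted p of the comparison. This gene of a cold-inducible RNA-binding protein (chr10:80165990-80172786) was at 51.1, 76.1, 78.6, 80.1 and 85.4 CPM at ZT4 and at 29.1, 27.2, 26.3, 26.9 and 27.7 CPM at ZT16. The ZT16 mice were nearly alike, and the ZT4 mice all lay higher, with replicate 1 the nearest to them. The log2 fold change was -1.44 (SE 0.126, edgeR adjusted p = 0.00315), and -1.41 (edgeR adjusted p = 0.00817) without the library labelled ZT4 replicate 4. Rbm3, the other classic cold-inducible gene, chosen after its values were seen, was at 103, 84.5, 89.2, 85 and 96.4 CPM at ZT4 and at 85.8, 44.6, 67.7, 68.2 and 51 CPM at ZT16, overlapping through 1 ZT16 mouse (-0.53, SE 0.158, edgeR adjusted p = 0.104). In the fit of 30 naïve libraries Rbm3 passed (edgeR adjusted p = 0.0319).

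The other genes named by size were all higher at ZT16. Usp2, a ubiquitin protease known as a clock-driven gene, was at 16.1, 28.5, 20.8, 35.6 and 23.5 CPM at ZT4 and at 50.2, 53.6, 96.9, 81.5 and 66.1 CPM at ZT16 (log2 fold change 1.48, SE 0.238, edgeR adjusted p = 0.0299). Mgp, the matrix Gla protein that prevents calcification, was at 23.7, 23.3, 27, 37.3 and 17.9 CPM at ZT4 and at 50.5, 46.5, 76.9, 69.7 and 82.6 CPM at ZT16 (1.33, SE 0.215, edgeR adjusted p = 0.0299). In both, replicate 4 was the highest ZT4 mouse, and the groups did not overlap. Wee1, the kinase that holds back entry to mitosis and a known target of the clock, was at 18.9, 16.1, 13.8, 13 and 15.2 CPM at ZT4 and at 27.7, 25.7, 29, 26.7 and 30.6 CPM at ZT16 (0.86, SE 0.112, edgeR adjusted p = 0.0219).

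P4ha1, a subunit of the prolyl hydroxylase of collagen, was at 35.6 to 43.9 CPM in the ZT4 mice and at 64.4 to 76.8 CPM in the ZT16 mice (log2 fold change 0.78, SE 0.0765, edgeR adjusted p = 0.00409). Pitpnm2, of the phosphatidylinositol transfer proteins, was at 13.3 to 16.5 CPM at ZT4 and at 27 to 32.3 CPM at ZT16 (0.97, SE 0.0969, edgeR adjusted p = 0.00409), and Fbxo3, a ubiquitin ligase subunit, at 43 to 49.1 CPM and 62.2 to 76.4 CPM (0.61, SE 0.0737, edgeR adjusted p = 0.0163). None of the 3 overlapped, and replicate 4 lay inside its group in each apart from being the highest ZT4 mouse for Fbxo3.

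Of the genes named after their values were seen, Vegfa (the vascular growth factor), Fosb (an immediate early gene), Lonrf1 and the zinc transporter gene Slc39a10 were higher at ZT16, with log2 fold changes of 0.71, 1.60, 1.16 and 0.93. Fosb was at 8.59, 3.67, 6.85, 3.40 and 4.57 CPM at ZT4 and at 14.5, 13.7, 21.7, 12.8 and 19.8 CPM at ZT16, while the list of immediate early genes had 1 of 24 members higher at ZT16, against 0.375% of all genes, and a median of -0.01. The hypoxia and glycolysis list had 2 of 27 members higher at ZT16 (P4ha1 and Vegfa), against 0.375% of all genes, and a median of 0.13. In 5 members every ZT16 mouse was above every ZT4 mouse (2.65% of all genes) and in 1 the opposite held (2.82%), and with 30 naïve libraries 4 members were higher at ZT16 and 1 at ZT4 (2.39% and 4.51% of all genes). The tight junction genes that the study names in other comparisons did not pass here. Cldn4 (claudin 4) had a log2 fold change of -0.32 (SE 0.275, edgeR adjusted p = 0.523) and Jam3 0.22 (SE 0.164, edgeR adjusted p = 0.466), and of 33 tested members of the tight junction list none passed, with a median of -0.04.

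Besides Cirbp, the 47 genes higher at ZT4 included metabolic, nuclear and immune genes, which were all chosen here after their values were seen. Bco2, the mitochondrial enzyme that cleaves carotenoids, was at 14.8, 45.4, 19.6, 32.8 and 41 CPM at ZT4 and at 10.3, 8.02, 9.87, 7.38 and 7.74 CPM at ZT16 (log2 fold change -1.83, SE 0.291, edgeR adjusted p = 0.0299). Here the ZT4 mice varied widely and replicate 1 was nearest to the ZT16 mice. H1f0, a linker histone, differed less, with a log2 fold change of -0.68 (edgeR adjusted p = 0.0284). Bbc3, the gene of the cell death factor PUMA, Cdc25b, a phosphatase that opens mitosis, and Pimreg, a mitotic gene, were lower at ZT16 by log2 fold changes of -1.30, -0.73 and -1.77.

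Antigen presentation by MHC class II was higher at ZT4 in 2 of 12 tested members, Cd74 and H2-Ab1, against 0.28% of all genes. Cd74, the invariant chain that guides class II molecules, was at 349, 852, 612, 601 and 814 CPM at ZT4 and at 226, 320, 296, 323 and 250 CPM at ZT16 (log2 fold change -1.19, SE 0.219, edgeR adjusted p = 0.0433). H2-Ab1, a class II chain, was at 142, 317, 268, 230 and 317 CPM at ZT4 and at 98.8, 122, 130, 133 and 111 CPM at ZT16 (-1.10, SE 0.198, edgeR adjusted p = 0.0425). In both genes the groups stood apart, with ZT4 replicate 1 close above the ZT16 mice. Over the whole list the mean log2 CPM was 4.95, 6.36, 5.43, 5.85 and 6.46 in the ZT4 mice and 4.54 to 5.04 in the ZT16 mice, so that ZT4 replicate 1 lay inside the ZT16 range. The list had a median log2 fold change of -1.15, all 12 values below 0, and 7 members whose groups did not overlap, against 2.82% of all genes. With the 30 naïve libraries in the fit 9 members were higher at ZT4 (4.51% of all genes), and 8 without the library labelled ZT4 replicate 4, but none without ZT4 replicate 5, 1 without ZT4 replicate 2 or ZT16 replicate 1 and 6 without ZT16 replicate 2. With 10 libraries both calls were lost without ZT4 replicates 2, 3, 4 or 5 or ZT16 replicates 1, 2, 3 or 5, 1 stayed without ZT16 replicate 4, and 10 members passed without ZT4 replicate 1 (4.37% of all genes). In bulk tissue, fewer cells of a type and less RNA per cell cannot be told apart.

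The B cell follicle list was high in some of the same mice. Its mean log2 CPM over 22 members was 1.37, 4.86, 1.47, 4.22 and 5.14 in the ZT4 mice and 1.66, 1.29, 2.26, 2.28 and -0.02 in the ZT16 mice. Only ZT4 replicates 2, 4 and 5 were high, and no member passed with 10 libraries, with a median log2 fold change of -2.58 and all 22 values below 0. Without ZT4 replicate 1 the remaining 9 libraries called 18 members higher at ZT4 (4.37% of all genes). With 30 naïve libraries 7 were called (4.51% of all genes), 19 without ZT4 replicate 1, 13 without ZT4 replicate 3, 1 without ZT4 replicate 4 or ZT16 replicates 3 or 4, and none without any of the other 5 mice. T cell genes had a median of -1.40 over 30 tested members, of which none passed with 10 libraries. Without ZT4 replicate 1, 10 were higher at ZT4 (4.37% of all genes). With 30 naïve libraries 4 of 33 were higher at ZT4 (4.51% of all genes). This count was 11 without ZT4 replicate 1 (1413 of 17712 genes), 4 without ZT4 replicate 4 and 0 without ZT4 replicate 5. The class II list was also highest in ZT4 replicates 2, 4 and 5, and the part of the B cell level in its difference was not tested. In a fit with the B cell marker score as a covariate Cd74 had a log2 fold change of -0.83 and H2-Ab1 of -0.82 (edgeR adjusted p = 0.191 and 0.19), and among all genes tested 1 was higher at ZT4 and 3 were higher at ZT16.

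Interferon-stimulated genes were at their highest in 1 ZT4 mouse. Ifit1, a sensor of foreign RNA, was at 31.2, 56.8, 81.8, 97.6 and 334 CPM at ZT4 and at 8.26, 18.2, 25, 26.1 and 39.9 CPM at ZT16 (log2 fold change -2.36, SE 0.62, edgeR adjusted p = 0.091). The mean log2 CPM of 50 members was 4.49, 5.17, 5.30, 5.52 and 7.19 in the ZT4 mice and 3.85 to 4.86 in the ZT16 mice, with replicate 5 far above all others. No member passed with 10 libraries, though all 50 had values below 0 and the median was -1.38. With 30 naïve libraries 29 members were higher at ZT4 (4.51% of all genes), 27 without ZT4 replicate 4, 44 without ZT4 replicate 1 and 2 without ZT4 replicate 5. Leaving out ZT16 replicates 1, 2 and 4 in turn gave 8, 11 and 11.

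Genes of mitosis had higher levels at ZT4 without a call. Of 41 tested members none passed with 10 libraries, all 41 values were below 0 with a median of -0.89, and 13 had every ZT4 mouse above every ZT16 mouse, against 2.82% of all genes. Their mean log2 CPM was 4.71, 4.08, 4.29, 3.92 and 4.57 in the ZT4 mice and 3.78, 3.95, 2.27, 2.89 and 3.74 in the ZT16 mice, so that the lowest values belonged to ZT16 replicates 3 and 4. Ccnb2, a cyclin of mitosis, was at 28.9, 24.1, 24.6, 22.4 and 33.6 CPM at ZT4 and at 15.2, 15.4, 4.04, 6.88 and 16.4 CPM at ZT16 (log2 fold change -1.20, SE 0.339, edgeR adjusted p = 0.0966). The fit of 30 naïve libraries called 21 members higher at ZT4 (4.51% of all genes), 20 without the library labelled ZT4 replicate 4, 14 without ZT16 replicate 3 and 7 without either ZT4 replicate 5 or ZT16 replicate 4. The list of DNA replication had a median of 0.09 and no call among 48 members with 10 libraries.

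**Figure D4:**
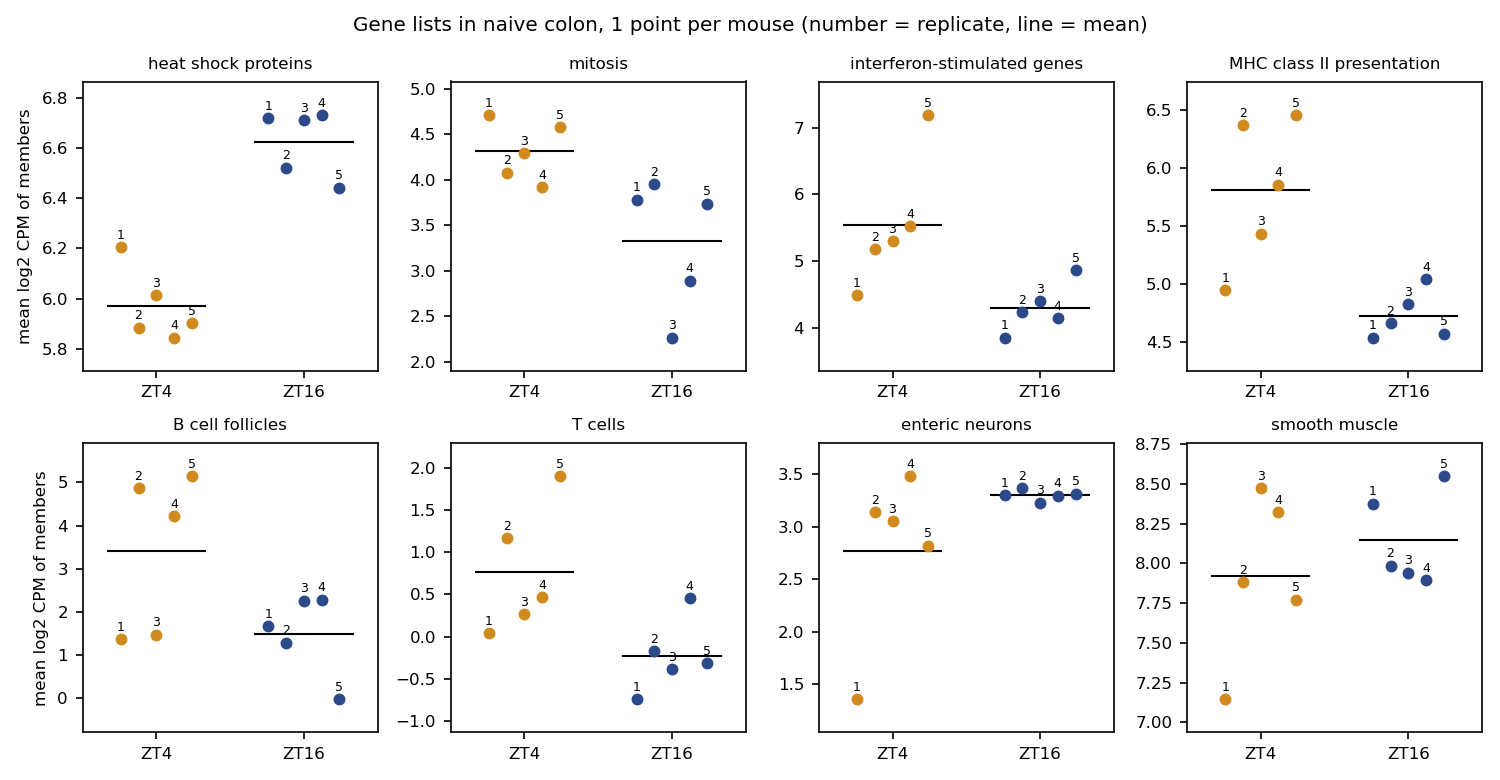
Mean log2 CPM of the members of 8 gene lists in each of the 5 ZT4 mice (orange) and 5 ZT16 mice (blue), with replicate numbers and group means as lines. The heat shock list does not overlap (5.85 to 6.21 against 6.44 to 6.73), while the B cell list is high in ZT4 points 2, 4 and 5 and the interferon list in ZT4 point 5 (7.19).

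Over all 53 lists, 6 held at least 1 called gene, and 17 of the 110 called genes were in a list while 93 were in none. The lists of ribosomal proteins, proteasome subunits, antibody secretion and plasma cells and of endoplasmic reticulum folding had no call with 10 libraries, with medians of -0.16, 0.08, -0.09 and 0.10. With 30 naïve libraries 5 of the 68 endoplasmic reticulum genes and 3 of the 32 proteasome genes were higher at ZT16 (2.39% of all genes). Of 29 plasma cell genes 3 were higher at ZT4 in that fit (4.51% of all genes). They were 4 without ZT4 replicate 1, 2 without ZT4 replicate 4 and 0 without ZT4 replicate 5. No ribosomal protein gene passed with 30 naïve libraries. Without ZT4 replicate 1 the endoplasmic reticulum list had 8 members higher at ZT16 with 9 libraries (2.54% of all genes). In the larger fit it then had 20, where 944 of 17712 genes were higher at ZT16. Without ZT4 replicate 4 the larger fit called 1 endoplasmic reticulum and 2 proteasome genes higher at ZT16. Without ZT4 replicate 5 it called 0 and 1. With 30 naïve libraries 35 lists held a call. The smooth muscle and enteric neuron lists were lowest in ZT4 replicate 1 (7.15 and 1.36, against 7.77 to 8.55 and 2.82 to 3.48 elsewhere), the library whose removal raised the counts most, and their part in that rise was not tested.

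The pair was then set against the other naïve pairs 12 h apart, which share no library with it. Between ZT8 and ZT20, 1318 genes were higher at ZT8 and 2008 at ZT20 in the fit of 30 libraries, and between ZT0 and ZT12, 343 were higher at ZT0 and 196 at ZT12. The difference between ZT4 and ZT16 departed from that between ZT8 and ZT20 in 17 of 17611 genes (0.0965%) by edgeR's quasi-likelihood test of the difference, many of them clock genes. Arntl had a log2 fold change of 2.24 between ZT8 and ZT20, which left a difference of -3.41 (SE 0.507, edgeR adjusted p = 0.0035), and Nr1d2, a REV-ERB gene, had -3.47 there, a difference of 3.80 (SE 0.587, edgeR adjusted p = 0.0035). Tef, Dbp, Nr1d1, Npas2, Per1 and Per3 also departed. Cirbp had nearly the same value in both pairs (-1.36 at ZT8 to ZT20, difference -0.08, SE 0.254), as had Hsp90aa1 (0.94, difference -0.08, SE 0.297), and neither difference passed. Without the library labelled ZT4 replicate 4 the count was 210 genes.

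From the pair ZT0 and ZT12 it departed in 146 genes (0.829%), and in 57 without the library labelled ZT4 replicate 4. Nr1d1 had the smallest adjusted p, with a log2 fold change of 2.95 from ZT0 to ZT12 and a difference of -5.06 (SE 0.578, edgeR adjusted p = 3.91e-05). Rbm3 was 0.87 there (difference -1.41, SE 0.211, edgeR adjusted p = 0.00314). The heat shock gene Hsp90aa1 was 0.75 (difference 0.11, SE 0.297) and Hspa8 1.04 (difference -0.15, SE 0.283), and neither difference passed. Cirbp was -0.39 from ZT0 to ZT12, a difference of -1.04 (SE 0.255, edgeR adjusted p = 0.0456).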

How the data were processed

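RNA from mid-colon sections was sequenced by the authors as stranded paired-end mRNA libraries. Per the submitters' processing notes and the study's methods, bcl2fastq 2.17.1.14 split the reads by library, Trimmomatic 0.36 trimmed them, STAR 2.5.3 placed them on the mouse genome (mm10, GRCm38), and Rsubread summed them by gene. The deposited table holds these raw counts, which the authors left without scaling, for 27179 identifiers, of which 25275 had a symbol in the RefSeq table of GRCm38.p6. Among small values (1 to 20) 73.3% were even numbers (against 50.5% of counts of at least 1000), so halved counts were added as an alternative after the data were seen.

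The 5 ZT4 and 5 ZT16 naïve libraries were fitted alone in R 4.3.3 with edgeR 4.0.16 (filterByExpr at min.count 10 and min.total.count 15, TMM, quasi-likelihood F test in its legacy form, Benjamini-Hochberg threshold 0.05). The SE is the absolute log2 fold change over the square root of F. Each mouse gave 1 library, so p values set the difference between groups against the spread between mice. No pair of replicates was a copy, with correlations of log2 CPM from 0.938 to 0.985. Departures from the pairs ZT8 and ZT20 and ZT0 and ZT12 were tested as differences of contrasts over 30 naïve libraries, which hold the same ZT4 and ZT16 mice. The test was checked on simulated data with planted changes. The simulation gave every gene the same spread between mice and held no outlying mouse. It therefore cannot show how the test fares where calls move with single mice. Alternatives used DESeq2 1.42.0, limma 3.58.1 (voom), other scalings, filters and covariates, a replicate block and libraries left out. The removal of ZT4 replicates 1 and 4 together, and of single libraries from the 30-library fit, was added after the data were seen.

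Of 1397 entries in 53 hand-written gene lists 1395 matched. A list's level is the mean log2 CPM (prior count 2) of its members, and its members' calls come from the test over all genes. Members, lists and naming rule were chosen with earlier results of these data known. The rule named up to 12 genes per direction with at least 10 CPM that passed both with all 10 libraries and without ZT4 replicate 4, all clock genes, up to 3 called members of any other list with at least 3 calls in a direction, and Per2, Cldn4 and Jam3. Some genes were tested with the rest but are not reported here, and the gene lists, but not the marker scores, were used without them. Other genes are said to be chosen after their values were seen.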

Additional observations from a re-analysis of the deposited data

Results flagged for a closer look

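The named genes, the marker scores and 5 list scores at each time point gave 206 groups of 5 mice. Of these groups, 24 held a mouse far from the other 4. Chance gives about 1 in 20 for a single group fixed beforehand. Many of the genes were named after their values were seen, and the groups share the same mice. The 24 therefore cannot be set against that rate and are a description only. The library labelled ZT4 replicate 4 stood above the other ZT4 mice in 5 clock genes, with 48.9 CPM of Per2 (others 9.22 to 18.5), 84.4 CPM of Dbp (4.06 to 10.7), 191.1 CPM of Tef (27.5 to 39.8), 24.2 CPM of Hlf (2.94 to 8.22) and 19 CPM of Ciart (0.29 to 1.24).

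ZT4 replicate 1 stood apart in 7. It was low in Cirbp (51.1 CPM, others 76.1 to 85.4) and in the enteric neuron marker score (2.42, others 4.15 to 4.75). It was high in 5 chaperone genes, Hspd1 (287.6 CPM), Dnajb1 (72.4 CPM), Ahsa2 (18.2 CPM), Hspa5 (705.0 CPM) and Hsph1 (86.8 CPM). In Cirbp and in the 5 chaperone genes its value was the nearest of the ZT4 mice to those at ZT16.

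ZT4 replicate 5 was high in 7 genes, 5 of which are in the interferon list: Ifi44 (165.4 CPM), Ifit1 (333.9 CPM), Isg15 (327.3 CPM), Usp18 (57 CPM) and Stat2 (263.5 CPM). The other 2 were Gbp4, a guanylate-binding protein of a family that interferon induces, outside that list (29 CPM, others 9.75 to 14.5), and Pttg1, the securin of mitosis (30.9 CPM, others 17 to 20.4). Among the ZT16 mice, replicate 4 stood apart in Jam3 (18.6 CPM, low) and H2-DMa (19.3 CPM, high), replicate 3 in Bbc3 (8.19 CPM) and Slc37a2 (66 CPM), both high, and replicate 5 in Ifi44 (5.86 CPM, high).

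A test of the difference itself found 17 genes in which the ZT4 to ZT16 difference departed from the ZT8 to ZT20 difference, and 146 in which it departed from the ZT0 to ZT12 difference.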

How the results depend on the processing

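Against 47 genes higher at ZT4 and 63 at ZT16, DESeq2 called 918 and 546, voom with quality weights 922 and 683, the 30-library fit 795 and 421, the smooth muscle score as a covariate 98 and 121, and the B cell score 1 and 3. With no filter on low counts 25 were higher at ZT4 and 47 at ZT16. Above a log2 difference of 1 there were 18 and 13 genes, and above 2 there were 2 and 1. Counts with single libraries left out ran from 1 to 738 and from 3 to 429 with 10 libraries (lowest without ZT4 replicate 2 among others, highest without ZT4 replicate 1), and from 241 to 1413 and 153 to 944 with 30. Without ZT4 replicates 1 and 4 together there were 190 and 130. Other scalings, a mean of at least 5 CPM, halved counts and other forms of the quasi-likelihood test kept the counts within 1.5 times, and in no alternative did a called gene turn its sign.

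Same-numbered mice were not taken as pairs (correlations of deviations 0.12, 0.02, -0.37, -0.20 and -0.21 for replicates 1 to 5), and the labels name no batch that a number would share. With the replicate number as a block edgeR called 0 and 0 genes, and 2612 genes had an unadjusted p under 0.05. The departures from ZT8 and ZT20 (17) became 35 with voom, 210 without ZT4 replicate 4 and 12 with the block, and those from ZT0 and ZT12 (146) became 324, 57 and 56.

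Cirbp, Pitpnm2 and P4ha1 passed in 23 of 24 alternatives, all but the block (adjusted p = 0.0708, 0.0708 and 0.0843). Log2 fold changes that turned their sign all belonged to genes that had not passed. With single libraries left out, Dbp ran from -0.52 to 1.66, Nfil3 from -0.21 to 0.32, Rora from -0.0296 to 0.29, Ciart from -0.29 to 2.77 and Bhlhe41 from -0.58 to 0.18, against -0.11, 0.11, 0.06, 0.21 and -0.38. Dbp also turned to 0.17 with voom, 0.00811 with the smooth muscle score, 0.43 with the B cell score, 0.66 with the block and 2.01 without ZT4 replicates 1 and 4. The B cell score turned Clock to 0.00332, Rora to -0.13 and Bhlhe41 to 0.28. Without ZT4 replicates 1 and 4 Nfil3 turned to -0.13, Rora to -0.0928 and Bhlhe41 to 0.13. The causes were not tested.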
